A study of Mus musculus with 6 samples.

Results

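Regulator of G-protein signaling (RGS) transcripts were examined in 3T3-L1 adipocytes with and without knockdown of RBMS1. The set held 10 named genes out of 45706 in the deposited count table: Rgs2, Rgs3, Rgs4, Rgs5, Rgs10, Rgs12, Rgs14, Rgs16, Rgs17 and Rgs19. It was drawn up because Rgs17 was higher in the knockdown cells, so the values of Rgs17 in that contrast are a description, carry no test and support nothing. The table listed 21 genes whose symbol is Rgs and a number, and 11 of them had at least 1 count in any library. Of the 10 members, 6 had enough counts to be tested (Rgs2, Rgs3, Rgs12, Rgs16, Rgs17 and Rgs19), and Rgs4, Rgs5, Rgs10 and Rgs14 did not.

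The 3T3-L1 line is a mouse fibroblast line that turns into fat cells under a hormonal cocktail. Total RNA was sequenced from 3 libraries of cells carrying a scrambled control shRNA and 3 libraries of cells carrying an Rbms1 shRNA (RBMS1 knockdown, RBMS1KD), in both cases delivered by lentivirus and selected with puromycin; whether each stable line was 1 clone is not stated. The labels give the genotype as WT for the control and RBMS1KD for the knockdown cells and call both fibroblasts. Both groups were differentiated with IBMX, insulin, dexamethasone and rosiglitazone and harvested on day 7. IBMX blocks cAMP breakdown and dexamethasone is a glucocorticoid. The cells of every library were given both early in differentiation, so an untreated state was not analysed here. By the study's methods, the cocktail was replaced by medium with insulin and then by complete medium before day 7. The medium at harvest thus had neither drug added. The study's methods call the replicates of each group biological, and neither they nor the labels say whether these were separate transductions or separate differentiations of 1 line, so the p-values measure the spread between these 6 samples.

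Heterotrimeric G proteins carry the signal of cell surface receptors while their alpha subunit holds GTP. RGS proteins bind that alpha subunit and speed its hydrolysis of GTP, which ends the signal, and they are grouped by sequence into subfamilies. In fat cells the beta-adrenergic receptors act through Gs to raise cAMP and release fatty acids, while Gi-coupled receptors for adenosine, lactate and ketone bodies oppose them.

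The members lie in 3 subfamilies. The R4 subfamily, mostly small proteins made of little more than the RGS domain, held Rgs2, Rgs3, Rgs4, Rgs5 and Rgs16, the R12 subfamily held Rgs10, Rgs12 and Rgs14, and the RZ subfamily, with a cysteine string that is palmitoylated, held Rgs17 and Rgs19. Promoter windows, reaching from 250 bases before to 50 bases after an annotated start site, were found in RefSeq (GRCm38.p6) for 9 of the 10 members, with 13 starts. The windows of Rgs17, of Rgs19, the other RZ member, and of Rgs2, the most abundant member, are shown because the comparison below turns on these 3 genes. Capitals mark the motifs searched on both strands: the cAMP response element (TGACGTCA), its shorter core (TGACG, also contained in the longer element), the GC box (GGGCGG), the TATA box (TATAAA), the CCAAT box (CCAAT), the E-box (CACGTG) and a core of the glucocorticoid response element (AGAACA). All run 5′ to 3′ on the minus strand, at chr10:5922351-5922650 for Rgs17, chr2:181693928-181694227 for the start of Rgs19 listed ahead of its other starts, and chr1:144004100-144004399 for Rgs2.
Rgs17: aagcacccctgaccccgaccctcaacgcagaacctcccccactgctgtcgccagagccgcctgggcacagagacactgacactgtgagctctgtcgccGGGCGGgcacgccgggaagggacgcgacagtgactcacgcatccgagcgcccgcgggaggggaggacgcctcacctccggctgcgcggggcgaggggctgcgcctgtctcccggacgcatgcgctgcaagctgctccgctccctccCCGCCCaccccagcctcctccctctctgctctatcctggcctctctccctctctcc
Rgs19: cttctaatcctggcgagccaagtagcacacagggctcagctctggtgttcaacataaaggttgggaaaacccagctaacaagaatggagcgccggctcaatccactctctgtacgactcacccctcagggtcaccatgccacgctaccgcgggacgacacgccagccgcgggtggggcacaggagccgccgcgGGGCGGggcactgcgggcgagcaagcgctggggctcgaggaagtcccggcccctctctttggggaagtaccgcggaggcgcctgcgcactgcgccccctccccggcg
Rgs2: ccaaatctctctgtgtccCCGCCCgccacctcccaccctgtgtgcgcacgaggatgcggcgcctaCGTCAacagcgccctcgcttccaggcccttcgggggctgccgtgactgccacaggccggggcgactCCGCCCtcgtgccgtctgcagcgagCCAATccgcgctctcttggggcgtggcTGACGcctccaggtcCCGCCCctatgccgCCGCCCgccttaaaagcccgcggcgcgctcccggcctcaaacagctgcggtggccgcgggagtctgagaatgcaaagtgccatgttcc
The Rgs17 window held 2 GC boxes and none of the other motifs. It had a GC content of 71.0% and 27 CpG dinucleotides, against medians of 52.7% and 7 over all 32851 promoter windows of the table. The Rgs19 window held 1 GC box, with a GC content of 66.7%, and the Rgs2 window held 4 GC boxes, 1 CCAAT box and 2 copies of TGACG, with a GC content of 70.0%. GC boxes were present in 35.7% of all windows, CCAAT in 37.4%, TGACG in 20.8%, AGAACA in 19.0%, TATAAA in 13.6%, CACGTG in 7.15% and the full cAMP response element in 1.79%. A match to these letters is a description of the window and not a bound site.

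Library totals ranged from 3142699 to 11073111 estimated counts, and 3 counts corresponded to 0.220 to 1.49 CPM (counts scaled to the size of the library, which was adjusted here by TMM factors of 0.642 to 1.23). The shallowest library, control replicate 2, also had 43.0% of its counts on 4 genes derived from ribosomal RNA, against 8.12 to 17.8% in the other libraries. Rbms1 itself stood at 113, 102 and 99.6 CPM in the control libraries and at 49.2, 61.4 and 84.0 CPM in the knockdown libraries, a log2 fold change of -0.69 (SE 0.20) that did not pass the test (edgeR quasi-likelihood, adjusted p = 0.185). Markers of adipocytes, the cells the protocol makes, and of fibroblasts, the cell type in the labels, were both present. The summed level of 13 adipocyte markers was 11494.5 to 12952.9 CPM in the control and 6832.4 to 11990.8 CPM in the knockdown libraries, and all 12 that were tested had a fold change below 0 (5673 of all 11440 genes tested did), of which 2 (Retn and Adrb3) passed as lower (0.909% of all genes tested did). With library size alone 8 lay below 0 and 4 above (median -0.40 relative to the shift of all genes), and Retn, on chromosome 8 like Adrb3, passed in 1 of 6 fits that left out 1 library, the one without knockdown replicate 1. It was also lost with library size alone, with RLE size factors and with a replicate block (edgeR, adjusted p = 0.118, 0.102 and 0.124). The 12 markers of fibroblasts and preadipocytes summed to 12361.9 to 14702.1 CPM and 8234.7 to 16910.1 CPM, and none of the 10 tested passed (2 at an unadjusted p under 0.05). Mural cell markers summed to 125 to 247 and 48.9 to 332 CPM, macrophage markers to 2.89 to 5.46 and 4.89 to 9.69 CPM with Adgre1 and Ptprc at 0, and endothelial markers to 0.172 to 1.99 and 0.587 to 1.44 CPM with Kdr and Cldn5 at 0. The part of these differences in the Rgs values was not tested, and in such bulk samples fewer cells of a type and less RNA per cell cannot be told apart.

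Rgs17 was higher in each knockdown library than in any control library, as were 8.96% of all genes tested. Rgs17 (chromosome 10, 5825663 to 5922400, minus strand, GRCm38) encodes an RZ protein that acts on the alpha subunits of the Gi, Gz and Gq classes and is best known from the nervous system. Its estimated counts were 31, 7 and 42 in the control libraries and 122, 155 and 270 in the knockdown libraries. This corresponded to 4.97, 3.47 and 7.23 CPM against 17.5, 18.1 and 19.8 CPM. The 3 knockdown libraries sat close together, and the control libraries were farther apart. The means were 5.22 ± 1.89 CPM (SD, n = 3) and 18.5 ± 1.19 CPM (SD, n = 3), with a fitted fold of 3.42 (log2 fold change 1.78, SE 0.27). On the log2 scale it ranked at position 51 of 11440 tested genes from the top, and its level per kb of transcript moved from percentile 6.01 of the tested genes in the control to percentile 26.3 in the knockdown. In both groups it was thus among the less abundant transcripts tested.

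Rgs17 also took a larger share of the Rgs transcripts in the knockdown. It made up 3.01%, 2.1% and 3.91% of all Rgs counts in the control libraries (95% Wilson intervals 2.13 to 4.24, 1.02 to 4.27 and 2.91 to 5.24) and 10.2%, 14.3% and 12.5% in the knockdown libraries (8.63 to 12.1, 12.3 to 16.5 and 11.2 to 13.9). These intervals cover counting error alone. Per kb of transcript its share was 0.916 to 1.77% in the control and 4.69 to 6.91% in the knockdown. Against Rgs19, the other RZ member in the set, the ratio of Rgs17 to Rgs19 counts was 0.272, 0.280 and 0.488 in the control libraries and 0.961, 0.987 and 1.10 in the knockdown libraries. This ratio is taken within a library, so it does not depend on how libraries were scaled to each other. The shares and the ratio use the Rgs17 counts for which the set was drawn up, so they too are descriptions and support nothing.

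**Figure D1:**
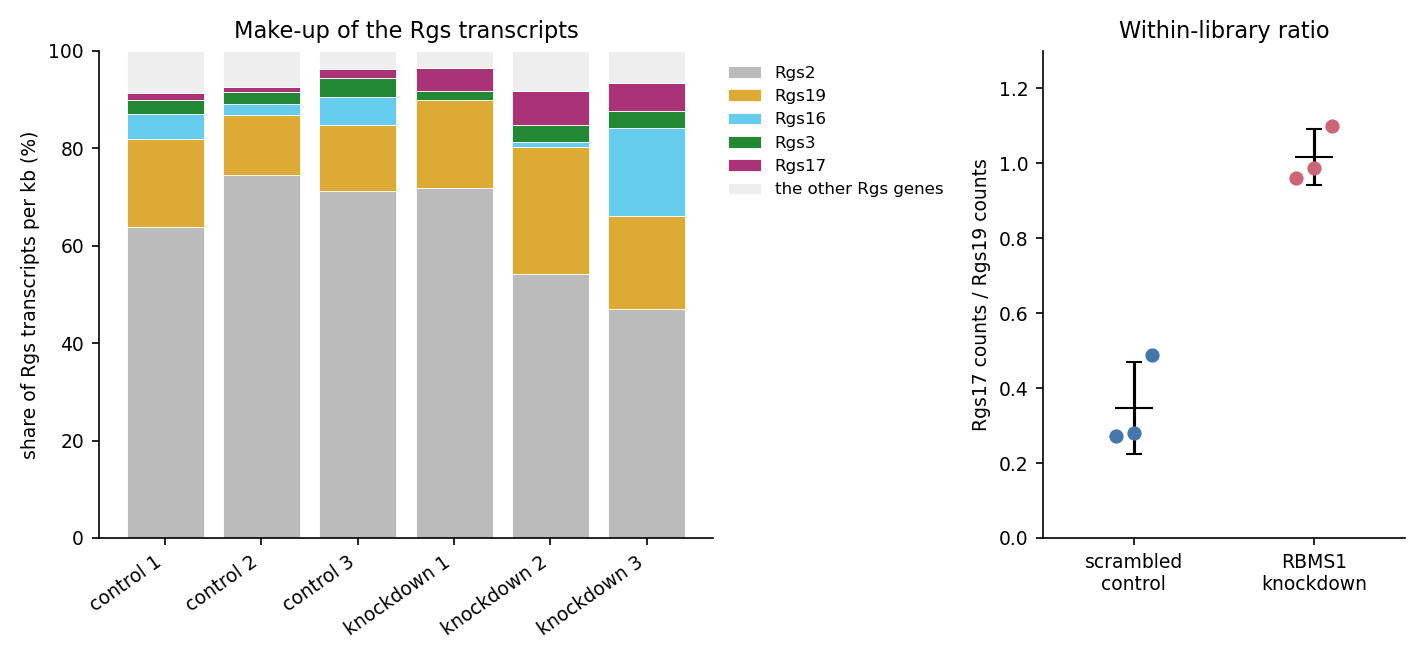
Left, the share of each Rgs gene in the summed CPM per kb of all Rgs genes, as stacked bars in percent for the 6 libraries. Right, the ratio of Rgs17 to Rgs19 counts in each library (points), with the group mean and SD (black); the 3 knockdown libraries lie between 0.961 and 1.10, above the control libraries at 0.272 to 0.488.

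Of the 5 tested members other than Rgs17, edgeR called 0 (adjusted p threshold 0.1), with 0 at an unadjusted p under 0.05, and DESeq2 called 0 of the 4 to which it gave an adjusted p (Rgs16 had none). Without knockdown replicate 1, Rgs2 passed. Over all genes tested, 1.22% passed in either direction while 0.315% passed as higher and 0.909% as lower in the knockdown. None of these 5 had libraries that did not overlap between the groups, beside 18.5% of all genes tested (8.96% higher and 9.55% lower). At an unadjusted p under 0.05 there were 1422 of the 11440 genes, DESeq2 called 430 genes and edgeR without knockdown replicate 1 called 696. The other members are taken here by subfamily.

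Rgs19, also called GAIP, is an RZ protein that acts on alpha subunits of the Gi and Gq classes. It lies on chromosome 2 (181688419 to 181693977, minus strand). It was measured at 18.3, 12.4 and 14.8 CPM in the control libraries and at 18.3, 18.4 and 18.1 CPM in the knockdown libraries, and the groups overlapped. The log2 fold change of 0.25 (SE 0.21, 95% interval -0.21 to 0.71) did not pass the test (edgeR, adjusted p = 0.673). The RZ subfamily has 1 more gene, Rgs20, which was not a member of the set. Its counts were 26, 3 and 17 against 4, 19 and 39, with a log2 fold change of -0.64 (SE 0.60, interval -1.99 to 0.70; edgeR, adjusted p = 0.721). The 3 RZ genes thus had fitted changes of both signs. Rgs17, for which the set was drawn up, alone among them had libraries that did not overlap. Over all genes tested 18.5% did not overlap, 8.96% being higher in the knockdown.

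Rgs2 was the most abundant member, with a share of Rgs counts of 63.3 to 74.8% in the control and 45.4 to 68.3% in the knockdown libraries. It encodes a regulator with a preference for Gq alpha subunits, and is known as a gene that hormones and cAMP induce quickly. Its level was 105, 124 and 127 CPM in the control libraries and 117, 62.2 and 72.1 CPM in the knockdown libraries. Knockdown replicate 1 lay among the control values, whereas the other two knockdown libraries lay below all of them. The log2 fold change was -0.50 (SE 0.23, interval -1.02 to 0.02) and did not pass (edgeR, adjusted p = 0.42). Without knockdown replicate 1 it was -0.81 and passed (edgeR, adjusted p = 0.0315), so whether Rgs2 was called rested on that library. Rbms1 was lowest in that library, at 49.2 CPM, against 61.4 and 84.0 CPM in the other knockdown libraries. The same library stood apart from the other knockdown libraries in its markers. Those of adipocytes summed to 11990.8 CPM in it, against 6832.4 and 8934.4 CPM in the others. Those of fibroblasts and preadipocytes summed to 8234.7 CPM, against 16811.5 and 16910.1 CPM, and those of mural cells to 48.9 CPM, against 242 and 332 CPM. The part of the markers and of the Rbms1 level in the Rgs2 values was not tested. A set of 20 immediate early and cAMP-responsive genes, to which Rgs2 was not assigned, had 2 of 19 tested genes lower, beside 0.909% of all genes tested. These were Dusp1 and Ier2, both lost without any 1 of the control libraries, and Ier2 also without knockdown replicate 3. Both were also lost with a replicate block (edgeR, adjusted p = 0.137 and 0.201). Knockdown replicate 1, highest of its group for Rgs2, was lowest for Dusp1 (10.6, against 40.2 and 19.2 CPM). It was also lowest for Ier2 (31.5, against 110 and 66.1 CPM). Of the 19 tested genes of the set, 12 were at an unadjusted p under 0.05 (1422 of 11440 over all genes). DESeq2 called 6, and edgeR called 5 without knockdown replicate 1 or without knockdown replicate 2. In all, 430, 696 and 38 genes were called in these 3 fits. The median log2 fold change of that list was -1.31, against 0.004 over all genes tested.

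Rgs3 and Rgs16, both regulators of Gi and Gq alpha subunits, completed the tested R4 members. Rgs3 was at 13.9, 12.4 and 20.8 CPM in the control and 9.06, 12 and 16.2 CPM in the knockdown libraries. The groups overlapped and the log2 fold change of -0.34 (SE 0.29, interval -0.99 to 0.30) did not pass (edgeR, adjusted p = 0.679). Scaling by library size alone, which moved the median of all genes by 0.37, put Rgs3 at 0.01, which is -0.36 relative to that shift.

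Rgs16 varied more between the knockdown libraries than between the groups. Its counts were 35, 5 and 38 in the control libraries and 0, 7 and 243 in the knockdown libraries, that is 5.61, 2.48 and 6.54 CPM against 0, 0.818 and 17.8 CPM. A single knockdown library, replicate 3, thus held nearly all the Rgs16 counts of its group, and the 0 in replicate 1 allows a level of up to 0.431 CPM. The fitted log2 fold change was 0.33 with an SE of 1.17 and an interval of -2.30 to 2.96 (edgeR, adjusted p = 0.938). Without that replicate it was -3.48 (edgeR, adjusted p = 0.132), and under limma-voom it was -1.61.

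Rgs4 and Rgs5, R4 genes best known from neurons and from the mural cells of vessels, were near or below the limit of these libraries. Rgs4 had 11, 8 and 2 counts in the control and 4, 5 and 18 counts in the knockdown libraries. With no filter on low counts its log2 fold change was -0.83 (SE 0.79). With 1 library left out it passed the filter. The log2 fold change then ran from -1.58 (without control replicate 3) to -0.27 (without control replicate 2), and it was not called. Rgs5 had 0, 0 and 2 against 0, 0 and 4 counts, which gives no fold.

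Of the R12 genes, Rgs12 encodes a large scaffold with several binding domains besides the RGS domain. It stood at 9.46, 2.98 and 3.27 CPM in the control and 7.62, 11.7 and 9.25 CPM in the knockdown libraries. Control replicate 1 lay within the knockdown values, and the other control libraries lay below them. The log2 fold change of 0.80 (SE 0.43, interval -0.17 to 1.77) did not pass (edgeR, adjusted p = 0.491), and without control replicate 1 it was 1.59 (edgeR, adjusted p = 0.189). Rgs10, a small regulator of Gi alpha subunits, had 13, 5 and 5 counts against 4, 7 and 13, with an unfiltered log2 fold change of -1.01 (SE 0.67). Rgs14, a regulator of Gi alpha subunits that also binds Ras proteins, was listed at 0 in all 6 libraries.

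**Figure D2:**
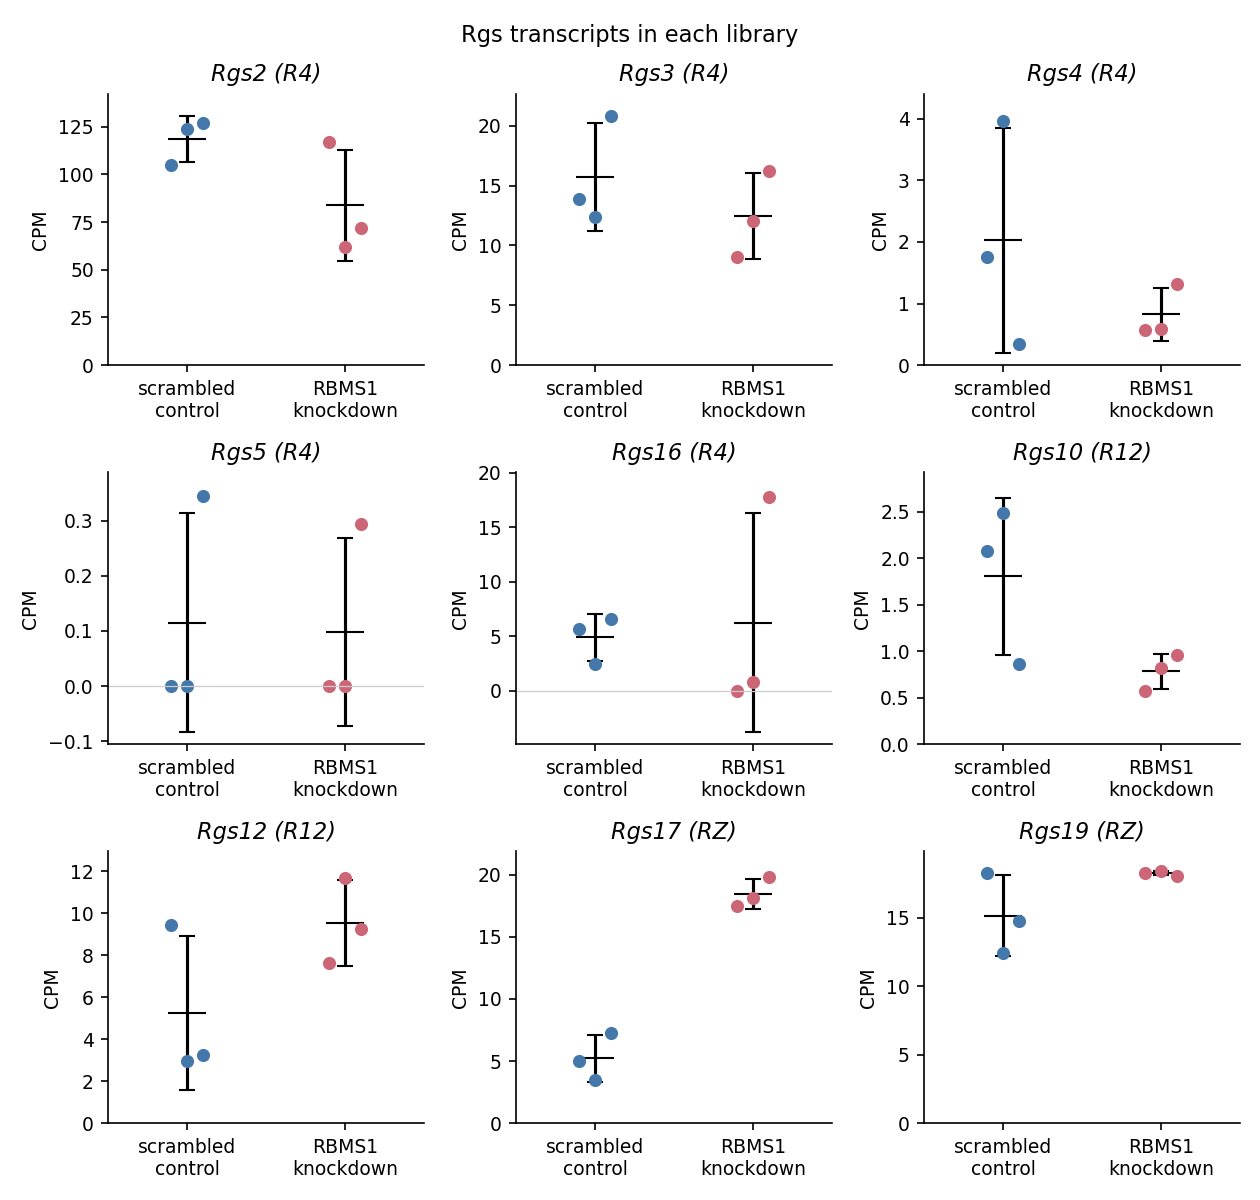
CPM of the 9 members with a count in any library, 1 panel per gene with its own linear axis; points are the 3 libraries of each group, in replicate order from left to right, and black marks are the mean and SD. Rgs17 separates the groups (3.47 to 7.23 against 17.5 to 19.8 CPM), Rgs19 and Rgs2 do not, and the Rgs16 mean of the knockdown rests on 1 library at 17.8 CPM.

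**Figure D3:**
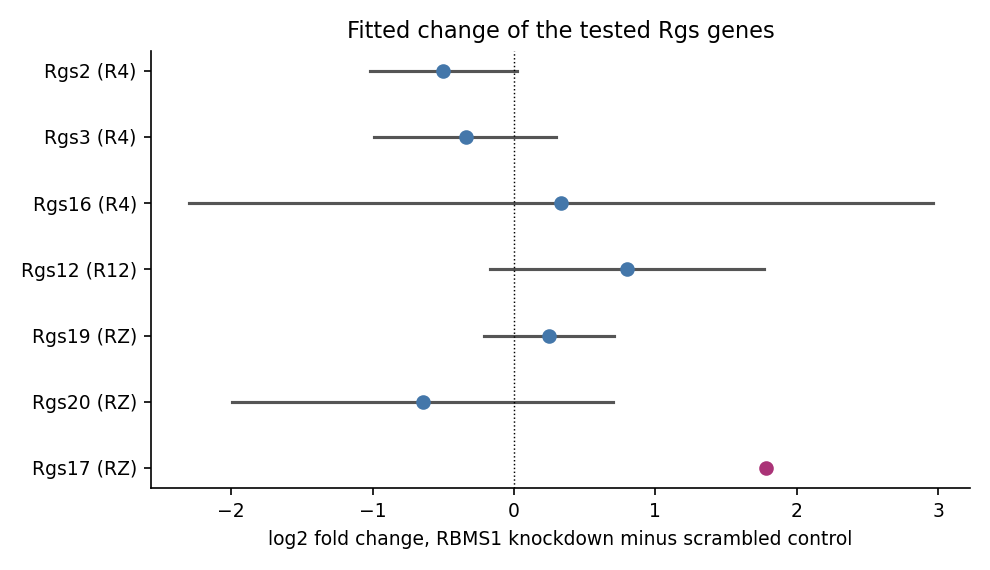
Fitted log2 fold change (knockdown minus control) for the 6 tested members and Rgs20, with the subfamily in brackets. Lines are 95% intervals; Rgs17 (1.78), the reason for the set, is drawn without one. The 6 intervals drawn span 0, and those of Rgs16 (-2.30 to 2.96) and Rgs20 (-1.99 to 0.70) are wide.

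Compared per kb of transcript, and with merged exons as the length, the order of levels in the control was Rgs2 (32.7 CPM per kb), Rgs19 (6.80), Rgs16 (2.08), Rgs3 (1.46), Rgs10 (1.06), Rgs4 (0.654), Rgs17 (0.629), Rgs12 (0.617), Rgs5 (0.0252) and Rgs14 (0). Rgs2 and Rgs19 each stood clear of the next gene, whereas neighbours from Rgs16 down to Rgs12 overlapped in their ranges. In the knockdown the order was Rgs2 (23.1 CPM per kb), Rgs19 (8.17), Rgs16 (2.66), Rgs17 (2.23), Rgs3 (1.15), Rgs12 (1.12), Rgs10 (0.457), Rgs4 (0.267), Rgs5 (0.0215) and Rgs14 (0). Rgs17 was at position 7 in the control and position 4 in the knockdown by this length, the merged exons of a gene. With the longest annotated transcript as the length it was at positions 8 and 5 instead. Rgs3 (3.35 and 2.65 CPM per kb in control and knockdown) then stood above Rgs17 (0.638 and 2.26) in both groups, and Rgs12 (0.957) and Rgs10 (2.06) stood above it in the control. Below Rgs2 and Rgs19 the order thus depended on the length used.

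Among the Rgs genes outside the set, Rgs11 of the R7 subfamily had 2, 0 and 3 counts against 1, 1 and 0, and the remaining 9 besides Rgs20 (Rgs1, Rgs6, Rgs7, Rgs8, Rgs9, Rgs13, Rgs18, Rgs21 and Rgs22) were listed at 0 in every library.

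The genes beside Rgs17 were read for comparison. Mtrf1l, a mitochondrial translation release factor gene ending 1753 bp away, had a log2 fold change of -0.17 (SE 0.37; edgeR, adjusted p = 0.894), with counts of 33, 28 and 42 against 59, 68 and 83 in libraries of larger size. Further out were Syne1 at -0.43 (adjusted p = 0.459), Cnksr3 at 0.62 (adjusted p = 0.198) and Lrp11 at 0.69 (adjusted p = 0.424), all by edgeR. None of these 4 neighbours passed, and the median over 525 tested genes of chromosome 10 was 0.02. Chromosome 1, which carries Rgs2, Rgs4, Rgs5, Rgs16 and Rgs20, had a median of 0.25 over 675 tested genes. The part of that shift in the values of these Rgs genes was not tested. The annotated genes overlapping other members had 0 or 1 counts in each group.

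The genes whose pattern over the 6 libraries lay nearest to that of Rgs17 came from other chromosomes. They were Htra1, a secreted serine protease (root mean square distance of centred log2 CPM 0.279), Gabre, a subunit of the GABA-A receptor (0.284), Bhlhe41, a transcription factor of the circadian clock (0.305), Pde2a, a cGMP-stimulated phosphodiesterase (0.327), and Zfp53, a zinc finger gene (0.332), where the median distance of a tested gene was 1.0. Their control and knockdown means were 0.502 and 2.19 CPM for Htra1, 11.1 and 35.5 CPM for Gabre, 9.14 and 27.0 CPM for Bhlhe41, 2.59 and 7.72 CPM for Pde2a and 2.63 and 6.78 CPM for Zfp53. The likeness is a description over 6 libraries in 2 groups, and any gene higher in the knockdown shares part of it.

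The rest of the pathway was read from lists of genes written by role. Of all 11440 genes tested, 1.22% were called, 1422 had an unadjusted p under 0.05 and 5767 had a fold change above 0, while DESeq2 called 430 and edgeR without knockdown replicate 1 called 696. The substrates of RGS proteins, the G alpha subunits, had 0 of 8 tested genes called in either direction by edgeR, with 3 at an unadjusted p under 0.05 and 1 called by DESeq2, and by edgeR without knockdown replicate 1. The median log2 fold change was 0.27, against 0.004 over all genes tested, and 7 of 8 lay above 0. Gnas, which encodes the Gs subunit, was the most abundant per kb and stood at 621, 477 and 512 CPM against 549, 473 and 683 CPM (log2 fold change 0.08, edgeR adjusted p = 0.907). Gnai2 stood at 163, 154 and 141 CPM against 164, 165 and 226 CPM (0.28, edgeR adjusted p = 0.554). Gnai1 and Gnaz, which encode further Gi-class substrates, were listed at 0 in every library, together with Gnat3 and Gna15. How transcripts were assigned to genes in these counts is not given in the sources used here, so a listed 0, here or for an Rgs gene, does not show that the transcript was absent.

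Of 8 tested G beta and gamma subunits, 1 fell and 7 did not pass (median 0.16), beside 0.909% of all genes tested that fell. Gng7, a gamma subunit, was at 5.77, 6.95 and 8.43 CPM in the control and 0.719, 0.818 and 1.61 CPM in the knockdown libraries. Its log2 fold change was -2.67 (SE 0.44; edgeR, adjusted p = 0.0399). The call was lost without any of the 3 control libraries or without knockdown replicate 2, the adjusted p running from 0.0262 to 0.215. It was also lost with a replicate block (edgeR, adjusted p = 0.105). The 2 most abundant per kb, Gnb1 and Gnb2, had log2 fold changes of 0.19 and 0.14 (edgeR, adjusted p = 0.643 and 0.87).

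Proteins that carry an RGS homology domain without being Rgs genes, such as the receptor kinases, had 0 of 11 tested genes called by edgeR (1 at an unadjusted p under 0.05, 0 called by DESeq2) and a median of -0.04. The 2 most abundant per kb were Arhgef12, a guanine nucleotide exchange factor (log2 fold change -0.09, edgeR adjusted p = 0.849), and Adrbk1, the receptor kinase GRK2 (0.27, edgeR adjusted p = 0.574). Among 7 tested partners of RGS proteins and other modulators of G alpha, 1 fell and 6 did not pass (median -0.02), beside 0.909% of all genes tested that fell; 2 were called by DESeq2, and by edgeR without knockdown replicate 1. This was Rasd1, a dexamethasone-induced Ras-like GTPase that activates Gi alpha subunits without a receptor. It was at 38.5, 26.3 and 22.4 CPM in the control and at 4.17, 2.10 and 1.25 CPM in the knockdown libraries, a log2 fold change of -3.57 (SE 0.43; edgeR, adjusted p = 0.0125). It passed without any of the 6 libraries in turn. Ccdc88a, which encodes girdin, a scaffold that also activates Gi, was at 54.5, 56.6 and 67.6 CPM against 85.5, 94.1 and 98.6 CPM and did not pass (log2 fold change 0.64; edgeR, adjusted p = 0.122).

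Of 63 receptors coupled to G proteins on the list, 30 were tested, 3 fell and none rose, where 0.909% of all genes tested fell and 0.315% rose. At an unadjusted p under 0.05 there were 10 (1422 of 11440 over all genes), and the number called was 8 without knockdown replicate 1 (696 over all genes) and 0 without control replicate 2 (12 over all genes) or knockdown replicate 2 (38 over all genes). The median was -0.27 and 23 lay below 0; with library size alone the split was 15 below and 15 above, and the median was -0.31 relative to the shift of all genes. Adrb3, the beta-adrenergic receptor typical of mouse fat cells, was at 64.1, 62.0 and 69.7 CPM in the control and at 35.5, 24.9 and 23.6 CPM in the knockdown libraries (log2 fold change -1.22, SE 0.19; edgeR, adjusted p = 0.0333). Adrb3 lies on chromosome 8, whose 624 tested genes had a median of -0.38. Retn, Ier2 and Prkaca lie there too, and the part of that shift in these 4 values was not tested. Ptgfr, the receptor for prostaglandin F2alpha, was at 56.1, 58.1 and 92.7 CPM against 19.1, 21.5 and 25.5 CPM (log2 fold change -1.65, SE 0.23; edgeR, adjusted p = 0.0251). Adgrl2, the adhesion receptor latrophilin 2, was at 30.8, 37.7 and 32.0 CPM against 4.89, 9.47 and 11.2 CPM (log2 fold change -1.96, SE 0.29; edgeR, adjusted p = 0.0333). In each of the 3 the lowest control library was above the highest knockdown library. That held for 6 of the 30 tested receptors and for 9.55% of all genes tested. The 3 were named because edgeR called them, so their separation adds no support. Ptgfr passed in 4 of 6 fits that left out 1 library, being lost without control replicate 2 or knockdown replicate 2, and Adrb3 and Adgrl2 passed in 2 of 6, being lost without any control library or without knockdown replicate 2. Adrb3 was also lost with library size alone and with a replicate block (edgeR, adjusted p = 0.22 and 0.105). The 2 receptors most abundant per kb, Hcar2 and Lgr4, had log2 fold changes of -0.38 and 0.29 and did not pass (edgeR, adjusted p = 0.841 and 0.592).

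Downstream of the G proteins, 0 of 9 tested adenylyl cyclase and protein kinase A genes were called by edgeR (1 at an unadjusted p under 0.05, 0 by DESeq2, 2 by edgeR without knockdown replicate 1; median -0.07). Prkaca, the main catalytic subunit, was at 310, 313 and 285 CPM against 292, 134 and 176 CPM (log2 fold change -0.59; edgeR, adjusted p = 0.391). Prkar2b, the main regulatory subunit of fat cells, had a log2 fold change of -0.31 (edgeR, adjusted p = 0.65). Of the listed phospholipase C beta and cAMP phosphodiesterase genes, 0 of 9 tested were called by edgeR. At an unadjusted p under 0.05 there were 2, DESeq2 called 0, and the median was -0.06. Pde2a, named above, was not on that list. Pde3b, the insulin-activated phosphodiesterase, was at 273, 252 and 270 CPM against 427, 217 and 160 CPM, so that the knockdown libraries lay on both sides of the control (log2 fold change 0.01; edgeR, adjusted p = 0.99). Plcb3 was at 81.3, 80.4 and 88.6 CPM against 103, 109 and 106 CPM and did not pass (log2 fold change 0.35; edgeR, adjusted p = 0.33).

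**Figure D4:**
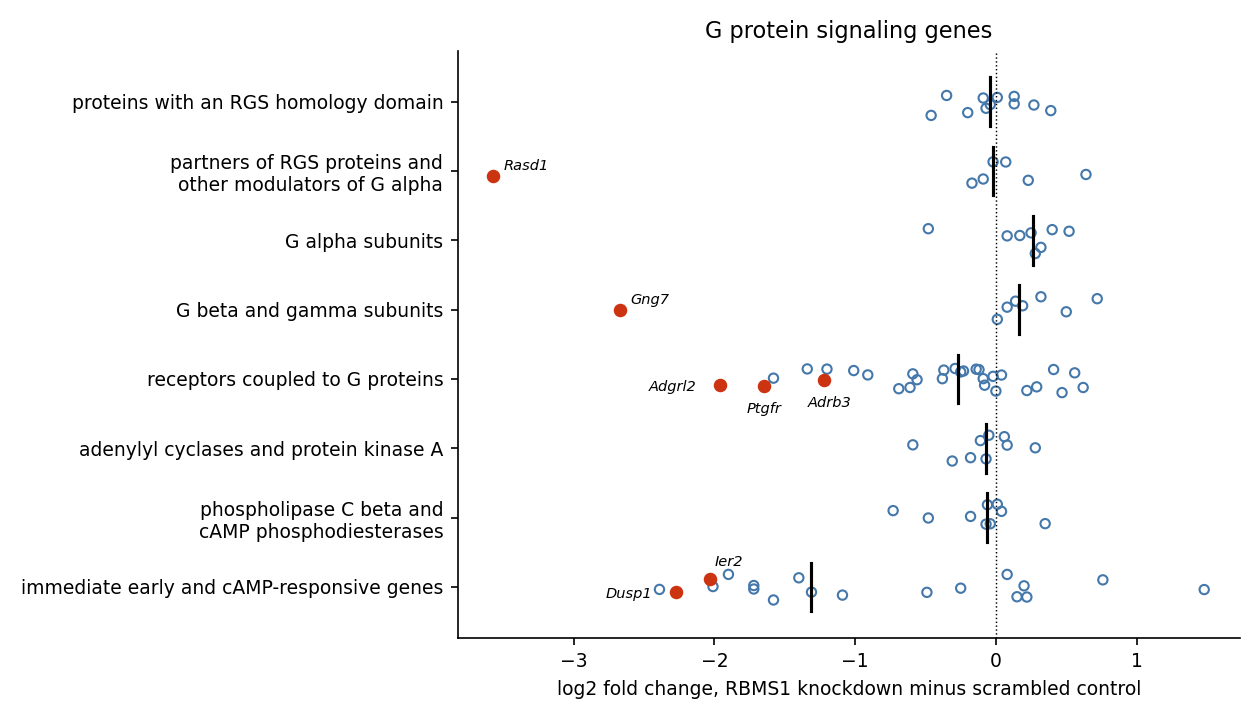
Log2 fold change (knockdown minus control) of every tested gene in 8 lists of the pathway, 1 row per list; filled red points passed at an adjusted p of 0.1 or less and are named, open points did not, and the black bar is the list's median. The called genes, Rasd1 (-3.57), Gng7 (-2.67), Adgrl2 (-1.96), Ptgfr (-1.65), Adrb3 (-1.22), Dusp1 (-2.27) and Ier2 (-2.03), all lie below 0.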

How the data were processed

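RNA was measured by stranded total RNA sequencing in 6 libraries, grouped by the title given in the labels. The authors trimmed reads with Trim Galore 0.6.7, used STAR 2.7.10a for alignment to GRCm38, and deposited estimated counts per gene from Salmon 1.9.0, without normalization. The annotation release is not given in the sources used here. Those values, of which 3.97 to 7.78% per library were not whole, were rounded and fitted with the quasi-likelihood method of edgeR 4.0.16 under R 4.3.3 (all 6 libraries, condition as the single term, low counts removed by filterByExpr, TMM scaling), adjusted by Benjamini-Hochberg over 11440 genes and called at 0.1 or less. CPM used TMM-scaled library sizes, and levels per kb used the merged exon length of a GENCODE M21 annotation. For 3 libraries against 3 the smallest p of an exact permutation test is 0.1, and none was run. DESeq2 1.42.0 and limma 3.58.1, other scaling and filters, a replicate block and each library left out were tried. On simulated data of the same size, 56.1% of 2-fold and 90.6% of 4-fold changes were recovered by edgeR, and 12.9% of calls were false. The simulated counts were drawn independently from the fitted dispersions, with no library that stood apart from its group. These rates need not hold for the calls in the real data.

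The members and the gene lists were chosen with earlier results of these data known. Genes named were Rbms1, the members, every other Rgs gene, and the called genes and the 2 most abundant genes per kb of each list. Of the immediate early list and the cell markers only the called genes were named, and macrophage and endothelial markers at 0. Also named were the 2 nearest tested genes on each side of Rgs17, and the 5 tested genes nearest to it in pattern. Gnai1, Gnaz, Gnat3 and Gna15 were added after their values were seen.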

Additional observations from a re-analysis of the deposited data

How the results depend on the processing

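The 140 genes called became 430 with DESeq2, 268 with no filter on low counts and 12 to 696 when 1 library was left out. The 7 called genes of the signaling lists became 14 with DESeq2 and 1 to 19 with 1 library left out. Of the members, 1 was called, Rgs17, whose call supports nothing since it was chosen for this contrast; the count was 0 without control replicate 1, control replicate 2 or knockdown replicate 2 and 2 without knockdown replicate 1, a range of 0 to 2. Rgs17 kept its sign in all 16 fits. Its log2 fold change was 2.10 with library size alone and ran from 1.60 (without control replicate 2) to 2.09 (without control replicate 3). Rgs2 ran from -0.81 (called, without knockdown replicate 1) to -0.31. Rgs3 was 0.01 with library size alone, or -0.36 relative to the 0.37 by which that scaling moved all genes, against -0.34. Rgs16 was -1.61 with limma-voom and ran from -3.48 (without knockdown replicate 3) to 0.90. The replicate numbers did not pair the libraries: deviations of same-numbered libraries correlated at -0.144, 0.0785 and -0.0284. With a replicate block, 39 genes and 3 list genes were called and Rgs16 was at -0.91. Rgs12 and Rgs19 kept their sign and stayed uncalled in all 16 fits, Rgs12 running from 0.53 to 1.59 (without control replicate 1). A variant of the edgeR estimates, chosen after seeing the data, moved none of these member calls. With the longest transcript as the length, Rgs3 moved from 1.46 to 3.35 CPM per kb in the control. The cause of these changes was not tested. Rgs4, Rgs10 and Rgs5 had 48, 47 and 6 counts in all and did not enter the main test.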
